A study of Homo sapiens with 6 samples.

Results

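The genes examined here encode the WNT ligands, their receptors and co-receptors, their secreted antagonists and the core of the beta-catenin branch. Members were the protein-coding genes named WNT, FZD, DKK or SFRP with a number, together with LRP5, LRP6, WIF1, AXIN1, AXIN2, CTNNB1, LEF1, TCF7, TCF7L1, TCF7L2, RNF43, ZNRF3, LGR4, LGR5 and RSPO3. This rule took 52 of the 58735 genes counted. It uses names and no measured value, although the family was chosen with earlier results of these data known. Cells labelled MG63, an established human osteosarcoma line, had received either an siRNA directed at FUBP1 (siFUBP1, 3 samples) or a control siRNA (siMock, 3 samples) 48 h before their RNA was taken for sequencing. FUBP1 encodes a protein that binds single-stranded DNA and RNA and was first described at the MYC gene. Both groups were transfected cells of the same labelled line, and no other treatment or genetic change is given in the labels. The labels do not say whether the samples of a group came from separate cultures, and the methods state in general that experiments were repeated without naming these samples. The p-values measure the spread between these samples, which may then be technical.

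Total counts lay between 16309900 and 17484313 per sample. FUBP1 itself fell from 255 ± 18.5 to 46.9 ± 5.33 CPM (counts scaled to the library size, SD, n = 3), which is 18.4% of the siMock level. The labelled cell type was checked against 12 osteoblast-lineage genes, and most of them were absent or near 0 in siMock. COL1A2, IBSP and POSTN had a count of 0 in all 6 samples, and SPARC, ALPL and SP7 had mean levels of 0.0605, 0.0418 and 0.0400 CPM in siMock. COL5A2, BGLAP and SPP1 stood at 0.164, 0.182 and 0.0810 CPM in siMock and at 0.462, 0.599 and 0.951 CPM in siFUBP1. COL1A1 was present at 113 CPM and VIM at 149 CPM in siMock, and RUNX2 at 0.448 CPM in siMock and 4.05 CPM in siFUBP1, where COL1A1 was called lower (-1.31 log2 units), RUNX2 was called higher (3.15) and VIM rose by 0.38. Of the epithelial genes, the keratins KRT8 and KRT18 stood at 1989 and 705 CPM in siMock, whereas EPCAM, CDH1 and KRT19 stood at 4.04, 0.937 and 0.124 CPM. The absent and near-absent genes go against the label, COL1A1 and VIM do not, and the samples are called the cells labelled MG63. The summed level of the osteoblast list was 257 to 273 CPM in siMock and 236 to 264 in siFUBP1, almost all of it COL1A1 and VIM. In siFUBP1 COL1A1 stood at 45.5 CPM and VIM at 194 CPM, so the similar sums hide opposite changes. For 5 epithelial genes the sum was 2528 to 2901 CPM in siMock and 1367 to 1497 in siFUBP1. The summed level of the 5 leukocyte genes was 3.97 to 4.53 CPM in siMock and 2.31 to 3.67 in siFUBP1, that of 4 endothelial genes 3.2 to 5.18 and 1.89 to 2.81, and that of 4 neural genes 3.39 to 4.96 and 5.73 to 6.75. The part of these shifts in the results below was not tested. In bulk RNA, fewer cells of a type and less RNA per cell cannot be told apart.

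WNT proteins are lipid-modified secreted ligands that bind Frizzled receptors on neighbouring cells. With the co-receptors LRP5 or LRP6, they halt the complex of axin, APC and kinases that destroys beta-catenin, which then accumulates and acts with TCF and LEF factors on target genes. Other ligands, such as WNT5A, act largely through branches that do not need beta-catenin and control cell polarity and calcium. The membrane ubiquitin ligases ZNRF3 and RNF43 remove Frizzled receptors from the surface, and R-spondins bound to LGR receptors clear these ligases. In bone, WNT signalling through LRP5 favours osteoblast formation, and the antagonist DKK1 opposes it.

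The siRNA guides come first among the sequences because a guide can lower mRNAs other than its target through matches to its seed. Guides of 3 siRNAs directed at FUBP1 were designed, and which of them was sequenced is not stated in the sources used here. Their guide strands are shown with the seed, bases 2 to 8, in capitals.
RNAi#1: uAAACUGAaugcgaacacc
RNAi#2: uAAGAGGUuugucagcacc
RNAi#3: uUUCUUCUaugaguugccg
A match of 7 bases to the seed was sought in the 3′ UTR of 1 transcript per gene (GENCODE release 29). RNAi#1 had such a match in 5 of the 33 members that could be tested for a change, against 20.9% of all genes with a UTR that were tested. The numbers were 6 of 33 against 12.7% for RNAi#2 and 10 of 33 against 20.2% for RNAi#3. Among the 18 members that fell in siFUBP1, 4, 4 and 5 held a match to RNAi#1, RNAi#2 and RNAi#3. Among the 6 that rose, 0, 0 and 2 did, and among the 9 that did not pass the test, 1, 2 and 3 did. The shares among all genes that fell or rose were not computed. Of the 9 members called lower, FZD4, FZD10, FZD1 and FZD8 held a match to at least 1 guide, and WNT6, WNT7A, WNT11, WNT9A and ZNRF3 held none. The share of all genes tested with a match to at least 1 guide was not computed, and the shares of single guides do not stand for it. FZD4 held matches to all 3 guides, as did WNT5A, which had a log2 fold change of -0.44. The neighbouring pair of FZD4 is shown because these stood closest together among its matches, beginning at bases 4227 and 4238 of its 3′ UTR. RSPO3, which rose, held 2 matches to RNAi#3, at bases 302 and 820. Capitals mark the bases that pair with the guide's seed.
FZD4, match to RNAi#2: ctggaaggaACCTCTTaaaatcagt
FZD4, match to RNAi#1: ctcttaaaaTCAGTTTacgtcttgt
RSPO3, first match to RNAi#3: gacatctggAGAAGAAacatctttt
RSPO3, second match to RNAi#3: atacttattAGAAGAAaattctgat
A match is a description of letters, and whether a guide acted on any of these mRNAs was not tested.

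Promoter sequences (RefSeq, GRCh38.p14, 250 bases before to 50 after the start of transcription) were matched for 36 of the members, in 43 promoters. They were searched on both strands for GGGCGG, the core of a GC box bound by Sp factors, for TATAAA, and for CTTTGAA and CTTTGAT, the letters that TCF and LEF factors bind. GGGCGG stood in 32 of the 43, against 45% of all 35116 promoters in the table, TATAAA in 4, against 11.5%, and a TCF letter run in 1, that of DKK1, against 6.86%. The median GC content was 66.3% in the members' promoters and 58.7% in all. The promoters of WNT6, the ligand with the clearest fall, of its neighbour WNT10A, which did not pass the test, and of RSPO3, which rose, are printed to set them side by side. Capitals mark GGGCGG or, where it is read from the other strand, CCGCCC.
WNT6, chr2:218859555-218859854, plus strand: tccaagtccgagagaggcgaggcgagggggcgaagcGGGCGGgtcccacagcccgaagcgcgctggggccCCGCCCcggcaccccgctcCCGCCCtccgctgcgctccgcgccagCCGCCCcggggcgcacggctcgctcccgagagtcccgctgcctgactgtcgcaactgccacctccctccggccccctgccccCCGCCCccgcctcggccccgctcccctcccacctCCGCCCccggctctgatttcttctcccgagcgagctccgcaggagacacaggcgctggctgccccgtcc
WNT10A, chr2:218880602-218880901, plus strand: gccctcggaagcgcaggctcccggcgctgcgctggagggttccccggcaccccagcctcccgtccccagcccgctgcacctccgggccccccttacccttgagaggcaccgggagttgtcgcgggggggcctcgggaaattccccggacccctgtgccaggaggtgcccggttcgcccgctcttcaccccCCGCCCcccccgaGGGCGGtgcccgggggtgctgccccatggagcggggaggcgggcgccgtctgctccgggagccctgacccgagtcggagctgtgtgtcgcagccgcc
RSPO3, chr6:127118421-127118720, plus strand: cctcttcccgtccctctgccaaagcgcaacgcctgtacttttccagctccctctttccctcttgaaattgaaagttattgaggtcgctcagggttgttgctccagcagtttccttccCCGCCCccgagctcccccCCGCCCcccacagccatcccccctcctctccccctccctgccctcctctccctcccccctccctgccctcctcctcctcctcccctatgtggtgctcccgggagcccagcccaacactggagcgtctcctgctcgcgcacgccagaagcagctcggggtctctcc
These windows hold 6, 2 and 2 copies, and none holds TATAAA or a TCF letter run. They were chosen by the change of their genes, and whether copies go with a change was not tested. Of other members, FZD4 and FZD1, both called lower, held 6 and 1 copies, and AXIN1, which rose, held 8. ZNRF3, FZD10 and WNT11 were not matched. A match is a description and not a site shown to be bound.

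Of the 52 members, 33 passed the filter on low counts. Their values come from edgeR's quasi-likelihood F test fitted to all 16116 genes that passed, with p adjusted over all of them by the Benjamini-Hochberg method. In what follows a gene rose or fell where its adjusted p was below 0.05, and was called where it also changed by more than 1 log2 unit. A total of 6 members rose, 18 fell and 9 did not pass the test, so that 72.7% passed, beside 60.2% of all genes tested. The members that fell made up 54.5% of those tested, and the background over all genes tested was 30.1%. The members that rose made up 18.2%, and the background was again 30.1%. Of the members, 9 were called lower (27.3%) and 2 were called higher (6.06%), beside 9.13% and 8.16% of all genes tested. The 3 siFUBP1 samples lay wholly below the 3 siMock samples for 18 members and wholly above for 5, so that 69.7% did not overlap, against 63.9% of all genes. The median log2 fold change of the members was -0.44, and that of all genes tested was 0.00197. Because WNT11 and WNT7A passed the filter only through their siMock level, these counts describe the genes that passed and not all members. Of the 30 members that passed in all samples of both groups, 16 fell and 6 rose, 7 were called lower and 2 were called higher. The share of all genes that passed in this way was not computed.

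**Figure D1:**
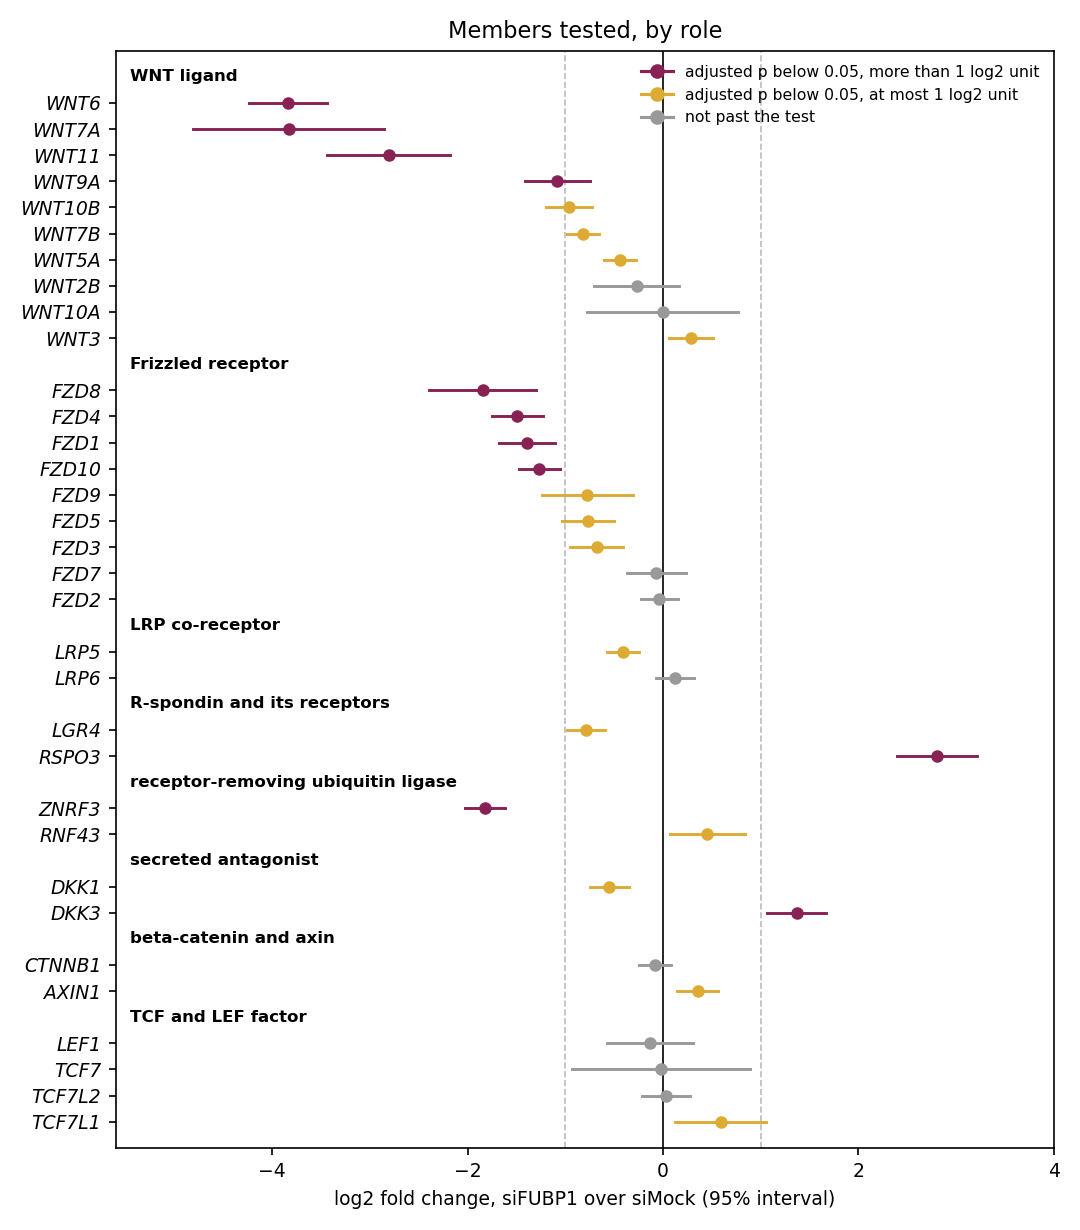
Log2 fold change of siFUBP1 over siMock (horizontal axis) with its 95% interval for the 33 members tested, grouped by role, from 3 samples a group. Colours give whether the adjusted p was below 0.05 and whether the change exceeded 1 log2 unit, marked by the dashed lines. Most ligands and Frizzled receptors lie to the left of 0, RSPO3 (2.81) and DKK3 (1.37) lie to the right, and CTNNB1 and most TCF and LEF factors lie close to 0.

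The WNT ligands fell in the main, and WNT6 and WNT7A fell the furthest, with intervals that overlapped. Of 19 ligand genes, 10 were tested, of which 7 fell, WNT3 alone rose, and WNT2B and WNT10A did not pass the test. The median log2 fold change of the 10 was -0.89. These counts and the median include WNT7A and WNT11, which passed the filter only through their siMock level. Among all genes tested 30.1% fell. WNT6 (ENSG00000115596, chromosome 2, 218859821 to 218874233, plus strand), a ligand that acts mainly through beta-catenin, had 518, 380 and 312 counts in siMock and 27, 26 and 36 in siFUBP1. The siMock samples were spread widely among themselves, yet the lowest stood far above every siFUBP1 sample. The level fell from 24.7 ± 6.22 to 1.72 ± 0.30 CPM (SD, n = 3). On the log2 scale this was a change of -3.84 (SE 0.19, edgeR adjusted p = 2.79e-14).

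WNT7A (ENSG00000154764, chromosome 3, 13816258 to 13880121, minus strand), known for roles in limb patterning and synapse formation, was counted 44, 41 and 28 times in siMock and 5, 2 and 1 times in siFUBP1. Its log2 fold change was -3.83 with a 95% interval of -4.81 to -2.85 (edgeR adjusted p = 1.28e-07), and the siFUBP1 counts stood near the 3 counts that a library with a count of 0 still allows. WNT11 (ENSG00000085741, chromosome 11, 76186325 to 76210736, minus strand), a ligand of cell movement and polarity, gave 67, 74 and 54 counts in siMock and 11, 7 and 11 in siFUBP1. It fell from 3.97 ± 0.463 to 0.562 ± 0.137 CPM, a log2 fold change of -2.81 (SE 0.31, edgeR adjusted p = 1.35e-08). Both genes were low from the start and passed the filter only through their siMock level. At their siFUBP1 level in both groups they would not have been tested. The distance between their groups is therefore a description, and their p-values carry that limit.

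WNT9A (ENSG00000143816, chromosome 1, 227918656 to 227947898, minus strand), which takes part in joint formation, had 176, 192 and 142 counts in siMock and 85, 72 and 97 in siFUBP1. The log2 fold change was -1.08 (SE 0.16, edgeR adjusted p = 2.49e-06). It lay close to the threshold of 1, and WNT9A was no longer called after the correction for GC content and length (-0.83), with scaling by library size only, by limma on log2(FPKM + 1), or without siFUBP1 sample 2.

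The 3 ligands with the highest levels per length fell by less than WNT6. The authors' FPKM values (fragments scaled to gene length and library size) were used to compare levels between genes. WNT7B was highest in siMock, at 19.3 ± 1.08 FPKM, with WNT5A at 19.0 ± 1.5 FPKM, and this pair did not differ beyond the spread of the samples. WNT10B followed at 16.1 ± 2.14 FPKM and WNT6 at 14.3 ± 3.61 FPKM, again within their spread, and WNT3 was well below them at 4.16 ± 0.218 FPKM. WNT7B, a ligand of branching organs and blood vessels, had 1626, 1751 and 1447 counts in siMock and 968, 943 and 972 in siFUBP1, with a log2 fold change of -0.82 (SE 0.0796, edgeR adjusted p = 1.76e-09). WNT10B, known to favour bone over fat formation, had 773, 618 and 702 counts against 390, 320 and 429, with a log2 fold change of -0.96 (SE 0.11). WNT5A, the main ligand of the polarity branch, had 2134, 2597 and 2218 counts against 1668, 1795 and 1948, with a log2 fold change of -0.44 (SE 0.0802, edgeR adjusted p = 3.62e-05). In each of these ligands all siFUBP1 samples lay below all siMock samples after scaling. WNT3, which acts in early axis and limb formation, had 281, 324 and 287 counts in siMock and 323, 416 and 412 in siFUBP1. Its rise of 0.29 log2 units had an adjusted p of 0.0284 by edgeR, which did not hold in DESeq2 (adjusted p = 0.0749) nor without siFUBP1 sample 2, siFUBP1 sample 3 or siMock sample 1.

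WNT2B had 63, 57 and 69 counts in siMock and 53, 59 and 54 in siFUBP1, with overlapping groups and a log2 fold change of -0.27 (SE 0.21, edgeR adjusted p = 0.284). It shares 2661 exonic bases with ST7L on the other strand, with 272 to 335 counts in siMock and 387 to 461 after knockdown.

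The summed level of all ligands differed between the groups in size and in makeup. The sum was 83.4, 78.1 and 74.7 FPKM in the siMock samples and 41.1, 40.1 and 44.7 FPKM in the siFUBP1 samples. The means were 78.7 ± 4.38 and 42.0 ± 2.42 FPKM (SD, n = 3). WNT6 made up 18.1% ± 3.52 of the sum in siMock and 2.38% ± 0.267 in siFUBP1. The share of WNT5A was 24.2% ± 2.82 in siMock and 33.5% ± 1.28 in siFUBP1, and that of WNT3 was 5.30% ± 0.508 and 12.2% ± 1.55, although the level of WNT5A itself fell. The shares of WNT7B (24.5% and 26.2%) and WNT10B (20.5% and 19.8%) overlapped between the groups. These shares are descriptions of the makeup and were given no test.

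**Figure D2:**
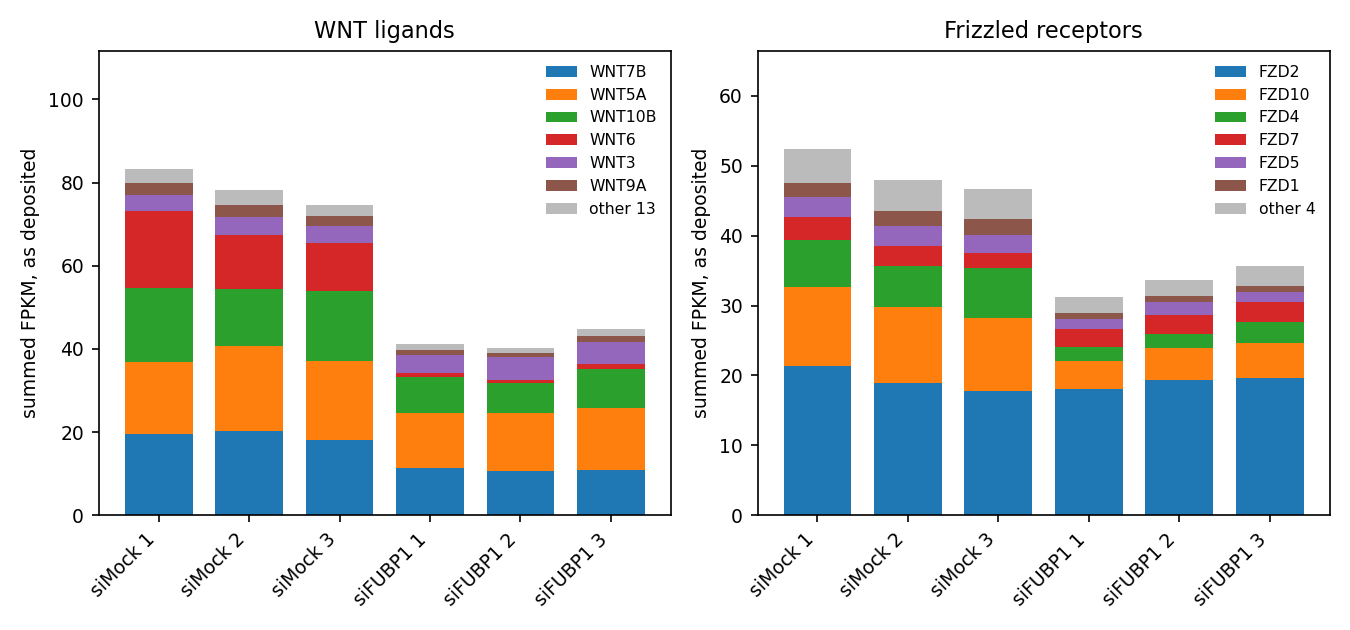
Summed FPKM (vertical axis, as deposited) of the WNT ligands and the Frizzled receptors in each of the 6 samples, stacked by gene, with the remaining genes of each family in grey. The ligand sum lies at 74.7 or above in the siMock samples and at 44.7 or below in the siFUBP1 samples, and the WNT6 layer is almost absent from siFUBP1. FZD2 makes up the widest layer of the receptors in every sample.

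Several WNT genes lie side by side in the genome, and in 1 such pair both genes were tested. WNT6 and WNT10A lie 6129 bases apart on the same strand of chromosome 2. WNT10A, active in skin, hair and teeth, had 23, 18 and 15 counts in siMock and 17, 13 and 29 in siFUBP1. Its groups overlapped, with a log2 fold change of -0.00453 and a 95% interval of -0.77 to 0.77 (edgeR adjusted p = 0.993), so the fall of WNT6 lies outside the interval of its neighbour. WNT10B and WNT1 lie 6689 bases apart on chromosome 12, WNT3 and WNT9B 46 bases apart on chromosome 17, and WNT9A and WNT3A 59152 bases apart on chromosome 1. In these 3 pairs the second gene had too few counts to be tested. WNT1 had 11, 7 and 3 counts in siMock and 2, 3 and 4 in siFUBP1, WNT9B had 1 count in all and WNT3A none.

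The Frizzled receptors fell or did not pass the test, and of the 9 tested none rose other than FZD2 after the GC and length correction. FZD6, too low to be tested here, was higher without the filter and is described with the untested members. Of 9 tested, 7 fell, of which 4 were called, and the median log2 fold change was -0.78. Beside these, 30.1% of all genes tested fell and 9.13% were called lower. FZD4 (ENSG00000174804, chromosome 11, 86945679 to 86955391, minus strand), a receptor of retinal blood vessels, had 818, 747 and 828 counts in siMock and 252, 264 and 387 in siFUBP1. The level fell from 49.0 ± 4.63 to 17.4 ± 4.10 CPM, a log2 fold change of -1.49 (SE 0.13, edgeR adjusted p = 1.97e-09). All siFUBP1 samples lay far below all siMock samples. FZD4 shares 1399 exonic bases with PRSS23 on the other strand, which is more abundant (4231 to 4968 counts in siMock) and fell by 0.47 on the log2 scale. The library kit does not mark the strand and the counting setting is not stated, so reads from the shared bases cannot be assigned.

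FZD10 (ENSG00000111432, chromosome 12, 130162459 to 130165740, plus strand), a receptor found at high levels in some sarcomas, had 607, 607 and 544 counts in siMock and 224, 262 and 287 in siFUBP1. It fell from 35.9 ± 1.19 to 14.9 ± 1.60 CPM, a log2 fold change of -1.26 (SE 0.10, edgeR adjusted p = 7.09e-11). FZD1 (ENSG00000157240, chromosome 7, 91264364 to 91271326, plus strand) had 227, 252 and 254 counts against 92, 102 and 102, with a log2 fold change of -1.39 (SE 0.14, edgeR adjusted p = 3.10e-09). Both were tight within groups and did not overlap between them. FZD8 (ENSG00000177283, chromosome 10, 35638249 to 35642278, minus strand) was lower, at 83, 101 and 56 counts in siMock and 16, 24 and 30 in siFUBP1. Its log2 fold change was -1.85 with a wider SE of 0.27 (edgeR adjusted p = 1.3e-06). FZD3, FZD5 and FZD9 fell by 0.68, 0.77 and 0.78 on the log2 scale, without overlap of the groups. The fall of FZD9, whose transcript is 68.4% GC, was no longer past the test after the GC and length correction (-0.40, adjusted p = 0.120).

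FZD2, the most abundant Frizzled receptor per length, did not share the fall. It had 747, 686 and 594 counts in siMock and 648, 708 and 731 in siFUBP1, and its groups overlapped. Its log2 fold change was -0.0369 with a 95% interval of -0.23 to 0.15 (edgeR adjusted p = 0.751), so that a change as large as those of the 4 called receptors lies outside its interval. The direction depends on the processing: after the GC and length correction FZD2 was higher by 0.24 (adjusted p = 0.00975), and with scaling by library size only it was higher by 0.0601. FZD7 had 215, 192 and 136 counts in siMock and 170, 179 and 198 in siFUBP1. Its log2 fold change was -0.0661 with a 95% interval of -0.37 to 0.24. The summed Frizzled level was 49.0 ± 2.98 FPKM in siMock and 33.5 ± 2.17 FPKM in siFUBP1. FZD2 made up 39.5% ± 1.43 of it in siMock and 56.7% ± 1.29 in siFUBP1, while FZD10 went from 22.1% to 13.5% and FZD4 from 13.4% to 6.96%.

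**Figure D3:**
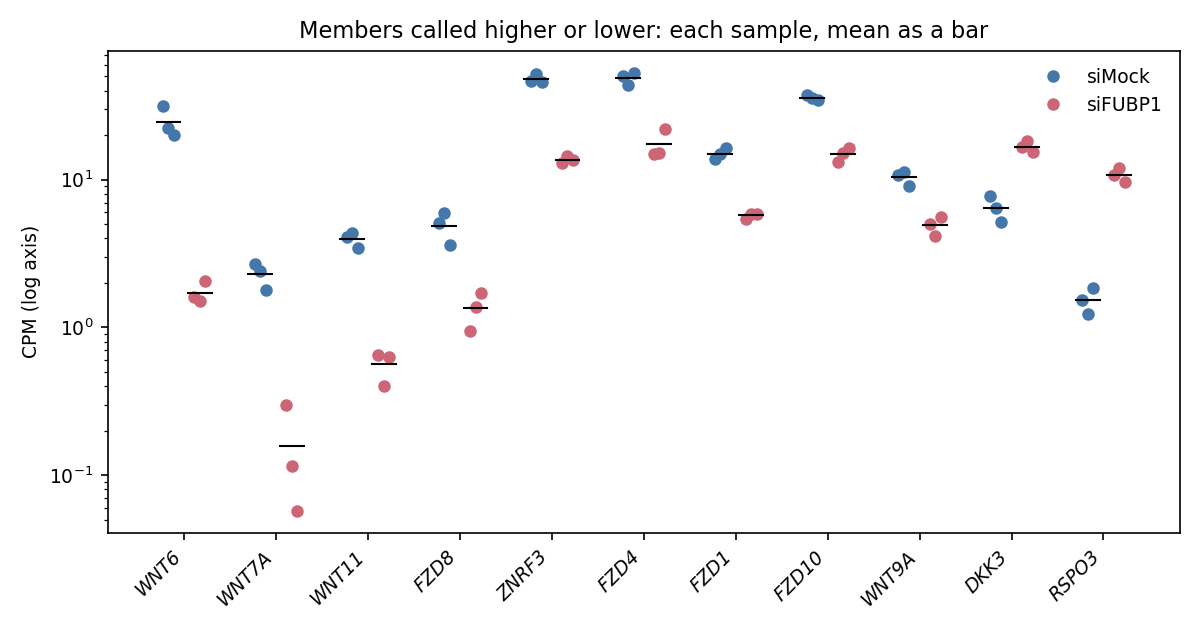
CPM on a log axis (vertical) of the 11 called members, with a point for each of the 3 siMock and 3 siFUBP1 samples and a bar at each mean. The groups are apart in each of these genes, with 9 lower and DKK3 and RSPO3 higher in siFUBP1. WNT7A in siFUBP1 rests on 1 to 5 counts per sample, and WNT7A and WNT11 passed the filter only through their siMock level.

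The co-receptors gave no call. LRP5 (ENSG00000162337, chromosome 11, 68312609 to 68449275, plus strand), the co-receptor tied to bone mass, had 2712, 3068 and 2438 counts in siMock and 2160, 2246 and 2118 in siFUBP1. It fell by 0.41 on the log2 scale (SE 0.0775, edgeR adjusted p = 5.82e-05), without overlap. Its transcript is 62.8% GC, and after the GC and length correction the log2 fold change was -0.0684 (adjusted p = 0.338). LRP6 had 732, 850 and 835 counts against 801, 920 and 1067, with overlapping groups and a log2 fold change of 0.12, with a 95% interval of -0.0744 to 0.32 (edgeR adjusted p = 0.277). Per length, LRP5 stood at 26.9 ± 2.04 FPKM in siMock and LRP6 at 4.73 ± 0.410 FPKM.

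At the level of mRNA, RSPO3, which encodes R-spondin 3, rose while its receptor gene LGR4 and the ligase gene ZNRF3 fell. RNF43, the other ligase gene, rose by less, and receptor turnover itself was not measured. RSPO3 (ENSG00000146374, chromosome 6, 127118604 to 127197765, plus strand), a secreted protein that strengthens WNT signalling, had 25, 21 and 29 counts in siMock and 181, 209 and 168 in siFUBP1. It rose from 1.54 ± 0.311 to 10.8 ± 1.22 CPM, a log2 fold change of 2.81 (SE 0.20, edgeR adjusted p = 5.02e-12). The siFUBP1 samples lay several-fold above each siMock sample. LGR4 (ENSG00000205213, chromosome 11, 27365961 to 27472775, minus strand), a receptor of R-spondins and the most abundant member, had 11648, 12244 and 12466 counts in siMock and 6743, 6686 and 8912 in siFUBP1. Its level was 116 ± 7.08 FPKM in siMock and 67.7 ± 10.6 FPKM in siFUBP1, and its log2 fold change was -0.79 (SE 0.0943, edgeR adjusted p = 9.89e-08). LGR5, the receptor that marks intestinal stem cells, had 1 count in all.

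ZNRF3 (ENSG00000183579, chromosome 22, 28883592 to 29057487, plus strand) and RNF43 are related ligases that moved in opposite directions. ZNRF3 had 762, 882 and 713 counts in siMock and 218, 250 and 236 in siFUBP1, all far lower. It fell from 48.1 ± 3.34 to 13.6 ± 0.758 CPM, a log2 fold change of -1.82 (SE 0.0996, edgeR adjusted p = 2.89e-14). RNF43 (ENSG00000108375, chromosome 17, 58352500 to 58417595, minus strand) was low, with 66, 72 and 67 counts in siMock and 96, 118 and 83 in siFUBP1. Its log2 fold change was 0.455 (SE 0.19, edgeR adjusted p = 0.0385). That rise did not pass the test in DESeq2 (adjusted p = 0.126) and was lost on leaving out any sample but siFUBP1 sample 3. RNF43 shares 4326 exonic bases with AC004687.2 on its own strand and 1521 with TSPOAP1-AS1 on the other, both at 13 counts or fewer per sample. Both ZNRF3 and RNF43 are known targets of beta-catenin as well as brakes on the pathway.

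Of the 9 secreted antagonists only DKK1 and DKK3 were expressed enough to be tested. DKK1 (ENSG00000107984, chromosome 10, 52314296 to 52318042, plus strand), which blocks LRP5 and LRP6, had 869, 846 and 802 counts in siMock and 597, 526 and 697 in siFUBP1. It fell by 0.55 on the log2 scale (SE 0.0965, edgeR adjusted p = 2.29e-05), and every siFUBP1 sample was lower than every siMock sample. DKK3 (ENSG00000050165, chromosome 11, 11963106 to 12009769, minus strand), a distant relative whose action on WNT signalling is debated, had 127, 109 and 81 counts in siMock and 279, 317 and 269 in siFUBP1. It rose from 6.46 ± 1.3 to 16.7 ± 1.45 CPM, a log2 fold change of 1.37 (SE 0.15, edgeR adjusted p = 1.02e-08). DKK1 shares 212 exonic bases with PRKG1-AS1 on the other strand, with 11 to 19 counts in siMock and 43 to 47 after knockdown. Of the summed DKK level, 24.3 ± 0.929 FPKM in siMock and 19.1 ± 1.83 FPKM in siFUBP1, DKK3 made up 5.18% and 17.4%. SFRP5 had at most 11 counts and SFRP4 at most 2 in any sample, and SFRP1, SFRP2, WIF1, DKK2 and DKK4 had none.

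Among beta-catenin, AXIN1 and the 4 TCF and LEF factors, AXIN1 and TCF7L1 rose and the rest did not pass the test. CTNNB1 (ENSG00000168036, chromosome 3, 41194741 to 41260096, plus strand), which encodes beta-catenin, had 6910, 7263 and 6920 counts in siMock and 6799, 6565 and 7698 in siFUBP1. The groups overlapped, and the log2 fold change was -0.0825 with a 95% interval of -0.24 to 0.0795 (edgeR adjusted p = 0.381). Whether it passed the test, and its direction, depended on the processing. CTNNB1 was lower by 0.16 after the GC and length correction (adjusted p = 0.0247) and higher by 0.0138 with scaling by library size only. AXIN1 (ENSG00000103126, chromosome 16, 287440 to 352673, minus strand), the scaffold of the destruction complex, had 981, 1003 and 689 counts in siMock and 1188, 1290 and 1121 in siFUBP1. It rose by 0.355 log2 units (SE 0.10, edgeR adjusted p = 0.00379), and by 0.67 after the GC and length correction. The lowest siMock sample, sample 3, stood well apart from the others, and without it the rise was 0.22 (adjusted p = 0.0379).

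AXIN2, a feedback gene widely used as a readout of beta-catenin, was too low to be tested, at 9, 8 and 14 counts in siMock and 2, 5 and 5 in siFUBP1. All siFUBP1 samples were lower, and without the filter on low counts its log2 fold change was -1.41 (edgeR adjusted p = 0.0819), or -1.45 by DESeq2 (adjusted p = 0.158). Of the TCF and LEF factors, TCF7L2 was the most abundant, with 242, 231 and 212 counts in siMock and 233, 255 and 251 in siFUBP1, and a log2 fold change of 0.0299 (SE 0.12, edgeR adjusted p = 0.844). LEF1 had 62, 74 and 57 counts against 48, 65 and 73, with a log2 fold change of -0.13 (SE 0.21). TCF7 had 8, 19 and 23 counts against 28, 15 and 9, with a log2 fold change of -0.0213 and a wide SE of 0.44. These 3 factors overlapped between groups and did not pass the test. TCF7L1, which often represses targets, had 49, 43 and 51 counts against 80, 56 and 92 and a log2 fold change of 0.59 (SE 0.23, edgeR adjusted p = 0.0260). That rise did not hold in DESeq2 (adjusted p = 0.0929), nor without siFUBP1 sample 1, siFUBP1 sample 3 or siMock sample 2. TCF7 shares 210 exonic bases with the abundant SKP1 on the other strand, and LEF1 shares 279 with LEF1-AS1, at 4 counts or fewer per sample.

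In all, 19 members were not tested. Of these, 7 had no count in any sample: WNT2, WNT3A, DKK2, DKK4, SFRP1, SFRP2 and WIF1. A count of 0 allows up to 3 counts, or 0.172 to 0.184 CPM depending on the sample when the TMM factor is left out, and these limits cover counting error only. The other 12 were listed at 17 counts or fewer in every sample. Among them FZD6, a polarity receptor, had 1, 2 and 0 counts in siMock and 17, 8 and 4 in siFUBP1, with every siFUBP1 sample higher. Without the filter FZD6 passed the test (edgeR adjusted p = 0.00196, DESeq2 adjusted p = 0.0228). WNT16, a ligand of cortical bone, had 0, 5 and 2 counts against 11, 4 and 14, with overlapping groups, and was past the test in edgeR without the filter (adjusted p = 0.0297) and not in DESeq2 (adjusted p = 0.113).

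The fold changes were also computed with the trend on GC content and length removed, since many members are rich in GC. After it, 17 members fell and 7 rose, beside 30.0% and 32.0% of all genes tested, and 8 were called lower and 2 higher, beside 8.32% and 8.18%. WNT6 kept a log2 fold change of -3.42, ZNRF3 of -1.62, FZD8 of -1.48 and RSPO3 of 2.67. WNT7B, with 63.0% GC in its transcript, moved from -0.82 to -0.499, and TCF7L1 from 0.59 to 0.81. The call of WNT9A was lost, and FZD9, LRP5, FZD2 and CTNNB1 changed their side of the adjusted p threshold, as given above.

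**Figure D4:**
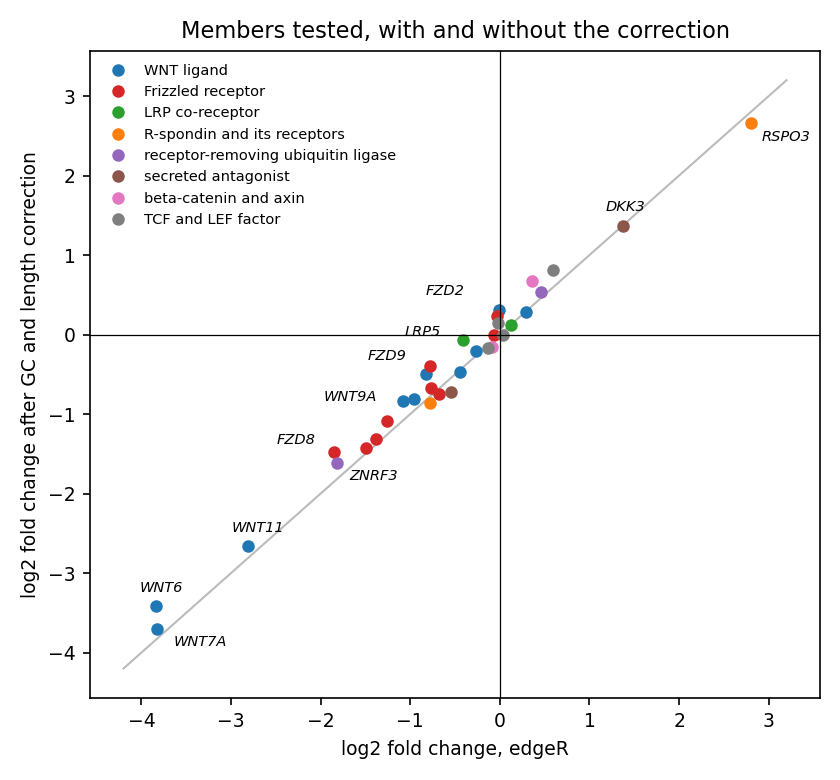
Log2 fold change of the 33 members tested after the GC and length correction (vertical axis) against that without it (horizontal axis), coloured by role, with a grey line where both are equal. WNT6 moves from -3.84 to -3.42, LRP5 from -0.41 to -0.0684, FZD9 from -0.78 to -0.40 and FZD2 from -0.0369 to 0.24, while DKK3 (1.37 in both) lies on the line.

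The rest of the pathway was read from 7 lists holding 172 names, of which 124 genes that are not members were tested. A total of 39 rose and 56 fell, 11 were called higher and 13 lower, and the median log2 fold change was -0.0882. Over all genes tested, 30.1% rose and 30.1% fell, 8.16% were called higher and 9.13% lower, and 17.3% were called in either direction. Of the 12 other receptors, co-receptors and R-spondins, 8 fell and 2 rose, with 5 called lower. LRP4, which binds WNT antagonists of bone, fell from 8.41 ± 1.20 to 2.31 ± 0.470 CPM (-1.86 log2 units, edgeR adjusted p = 9.16e-09). ADGRA2, a co-receptor for WNT7A and WNT7B, fell by 1.71 on the log2 scale, and KREMEN2, a receptor of DKK1, fell by 1.28. The remaining called genes of this list, LGR6 and KREMEN1, had means under 50 counts. Of 4 other extracellular genes, 3 fell and 1 rose: the WNT-cleaving proteases TRABD2A and TRABD2B fell by 1.25 and 1.19 on the log2 scale, and IGFBP4, which binds insulin-like growth factors, rose by 1.17 log2 units from 153 ± 15.7 to 343 ± 11.1 CPM.

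Many of the genes that make, carry and relay the signal passed the test with small changes, beside 60.2% of all genes tested that passed and 17.3% that were called. Of 10 genes of ligand secretion and modification, 3 rose and 4 fell, and VPS26A, a retromer subunit that takes part in recycling the WNT carrier, was called lower (-1.19 log2 units, edgeR adjusted p = 1.79e-12). Of 30 genes of the destruction complex and signal relay, 9 rose and 16 fell, and CSNK1G3, a kinase of LRP6, was called higher (1.54 log2 units). Of 21 nuclear partners of beta-catenin, 7 rose and 8 fell, and TBL1X, a cofactor exchange protein, was called higher (1.35 log2 units). Of 22 genes of the polarity and calcium branch, 6 rose and 9 fell: CELSR2, an atypical cadherin of planar polarity, fell from 127 ± 12.3 to 41.1 ± 5.17 CPM (-1.62 log2 units), and NFATC2, a calcium-responsive transcription factor, rose by 1.28 log2 units.

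Genes reported elsewhere as targets of beta-catenin and TCF went both ways. Of 27 tested, 12 rose and 9 fell, beside 30.1% in each direction of all genes tested. A total of 6 were called higher and 4 lower, beside 8.16% and 9.13%, and the median log2 fold change was 0.46. CCND1, which encodes cyclin D1, fell from 218 ± 13.8 to 45.2 ± 1.13 CPM (-2.27 log2 units, edgeR adjusted p = 1.22e-17). ID2, BAMBI and WISP2 fell by 1.34, 1.14 and 1.13 on the log2 scale. In the other direction MYC, the growth regulator, rose from 79.1 ± 5.30 to 200.2 ± 24.9 CPM (1.34 log2 units, edgeR adjusted p = 1.05e-12). FOSL1, an AP-1 subunit, rose by 2.71 log2 units, CYR61, a matrix-associated growth factor, by 2.25, and CLDN1, a tight junction protein, by 1.70. Each of these targets is also known to answer to other pathways.

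**Figure D5:**
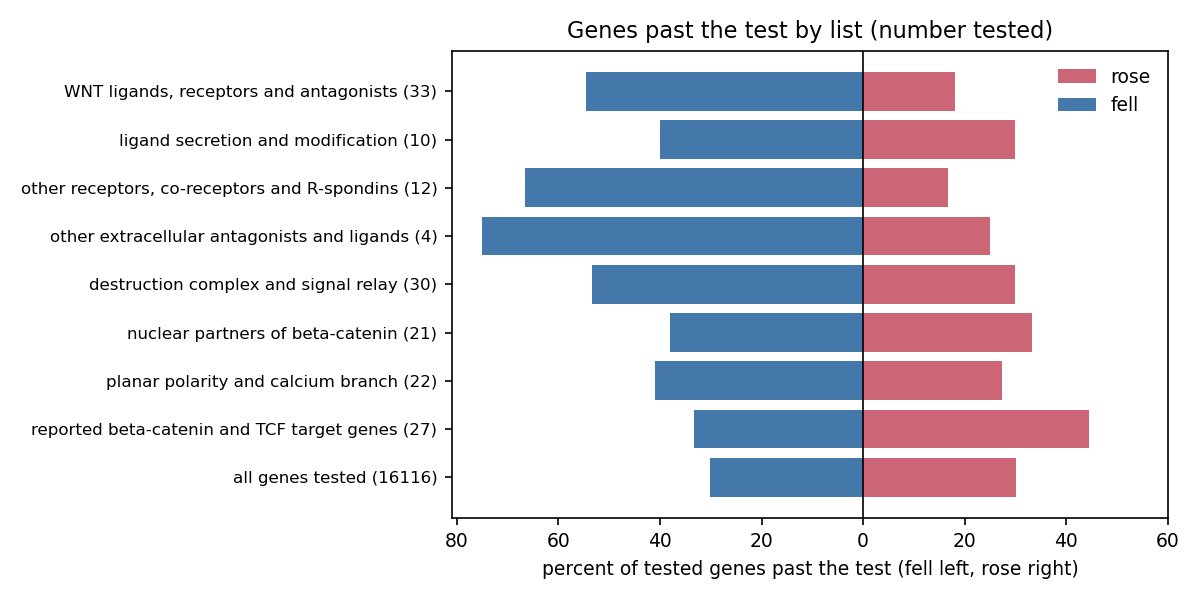
Percent of tested genes that fell (left) or rose (right) at an adjusted p below 0.05, for the 33 members, the 7 lists of other pathway genes and all 16116 genes tested, with the number tested in brackets. Fallen genes outnumber risen ones among the members (54.5% and 18.2%) and in each list but the target genes, where 12 rose and 9 fell, while all genes tested are even (30.1% and 30.1%).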

How the data were processed

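RNA-seq of 6 samples was used, 3 siMock and 3 siFUBP1, grouped by their titles. Libraries were made from 1 µg of RNA per sample with poly(A) selection and the NEBNext Ultra kit. The submitters' processing notes name HISAT2 2.0.5, featureCounts 1.5.0-p3, StringTie 1.3.3b and DESeq2 1.16.1. The authors deposited read counts per gene, without normalization, in a single table of 58735 genes. The FPKM values were deposited by the authors beside the counts, and served here for levels between genes. The signal columns deposited by the authors hold group means of their own comparison and were not used, nor were the deposited log2 fold changes and the deposited p-values of that comparison. All 58735 identifiers, starts and ends match GENCODE release 29 (GRCh38), which gave coordinates, transcripts and UTRs.

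Testing used edgeR 4.0.16 (R 4.3.3) with TMM scaling, the expression filter with the group (a CPM of 0.599 in 3 samples), a robust quasi-likelihood fit and Benjamini-Hochberg adjustment over the 16116 genes tested. CPM was computed from counts and the TMM-scaled library size. TMM factors were 0.959 to 1.05, with a common dispersion of 0.00684. No samples of a group held identical counts, and each pair differed by more than sampling noise (chi-square per gene of at least 5.94). The exact permutation test of 3 against 3 samples cannot go below 0.10, so single-gene p-values come from the fit across all genes. Intervals and limits cover counting error and the spread of these samples only. The test was tested on simulated data. Alternatives were DESeq2 1.42.0, other scalings and filters, limma 3.58.1 on log2(FPKM + 1) and log2(FPKM + 0.1), a correction for GC content and length (loess span 0.3, fitted where the mean count reached 50), a block for the replicate number, and omission of single samples.

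The members, the 7 pathway lists and the marker lists were chosen with earlier results of these data known. By a rule for names, full values were given for the called members, for the co-receptors, ligases, axins, beta-catenin and TCF or LEF factors, and for the most abundant member of each family. Values of other members are given by the same scheme, more briefly, and were chosen after their values were seen. Of the pathway lists, those called with a mean count of 50 or more were named, up to 4 per list and direction.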

Additional observations from a re-analysis of the deposited data

How the results depend on the processing

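Of 34 genes examined (the tested members and FUBP1), 22 kept their direction and their side of the threshold under all alternatives run, and of 540 combinations of gene and alternative 486 did. Of the 11 called members, 5 were called under all 17 settings, counting the main one. With limma on log2(FPKM + 1), 1 member was called higher, 5 were called lower and 3 rose, beside 2.87%, 3.65% and 29% of all genes under that setting, and of the other pathway genes 7 were called higher and 5 lower. With limma on log2(FPKM + 0.1), 3 members rose (28.9% of all genes), and without the filter on low counts 4 were called higher (5.14% of all genes), FZD6 and WNT16 being the added genes. The cause was not tested for the limma counts. Directions turned for 7 members that did not pass the test, with log2 fold changes near 0. Under the GC and length correction, FZD2 was at 0.24, TCF7L2 at -0.0087, TCF7 at 0.14 and WNT10A at 0.31. With that correction and the replicate block together, FZD2 was at 0.24, FZD7 at 0.0029, TCF7L2 at -0.0071, TCF7 at 0.13 and WNT10A at 0.26. With library size only, FZD2 was at 0.0601, FZD7 at 0.030, TCF7 at 0.0748, WNT10A at 0.0895 and CTNNB1 at 0.0138. WNT10A was at 0.0023 by DESeq2 and 0.0098 without the filter. On leaving out 1 sample at a time, the values ranged from -0.0986 to 0.0347 for FZD2, -0.21 to 0.0707 for FZD7, -0.26 to 0.0206 for LEF1, -0.55 to 0.31 for TCF7 and -0.38 to 0.23 for WNT10A. Members called lower then numbered 8 to 10, beside 8.88% to 9.66% of all genes under those settings. The replicate numbers did not pair the samples, with correlations between same-numbered samples of -0.0047, 0.0171 and 0.12. With the replicate block, 2 members were called higher, 9 were called lower, 6 rose and 18 fell, as without it. The shares of all genes under that block were 8.22%, 9.12%, 31.1% and 31.0%. Depth limits the 12 members with at least 1 read that were too low to test, and WNT7A, WNT11, TCF7 and WNT10A, which rest on few counts.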
